A study of Mus musculus with 8 samples.

Results

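The cells described here are pancreatic β-cells in which no transcript of Ucn3 was counted. The tables held 1240 islet cells, of which 1232 had at most 3000 detected genes and at most 20000 unique molecular identifiers (UMIs, each standing for 1 captured transcript). A cell was taken as a β-cell when Ins1 and Ins2 made up at least 20% of its UMIs and Gcg, Sst and Ppy each less than 5%, which gave 923 β-cells. Among the 811 β-cells with at least 3000 UMIs, 94 (11.6%) held 0 Ucn3 UMIs, 232 held 1 or 2, and 485 held 3 or more. The 94 cells are called Ucn3-null and the 485 cells Ucn3-high below. Both classes were selected on the measured Ucn3 count, so their Ucn3 levels are a description and carry no test.

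The 8 samples were islets of male C57BL/6J mice aged 8 weeks. In 4 samples (PPTx) the mice had undergone a 50% partial pancreatectomy 2 days before the islets were isolated, and in the other 4 (control) the mice had received no operation, so surgery without resection was not represented. Each sample pooled the islets of 1 to 3 mice, which were dispersed with trypsin into single cells before droplet sequencing, and no genetic alteration or drug was named for either group. The samples held 236645 to 1580152 UMIs over 66 to 294 cells, and 1 barcode occurred in more than 1 sample.

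Ucn3 (chr13:3940688-3945349, GRCm38.p6) encodes urocortin 3, a peptide of the corticotropin-releasing factor family that mouse β-cells store and release with insulin. Through the receptor Crhr2 on δ-cells it raises somatostatin secretion, which in turn restrains insulin and glucagon release. In the mouse its appearance accompanies β-cell maturation, and its loss is widely used as a sign of immaturity or dedifferentiation. Slc2a2 (chr3:28697903-28728361, GRCm38.p6) encodes GLUT2, the main glucose transporter of mouse β-cells.

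A count of 0 in a droplet library is not an absence of mRNA. The Ucn3-null cells had a median of 4756.5 UMIs (3035 to 13615), against 5439.5 in the cells with 1 or 2 Ucn3 UMIs and 8042 in the Ucn3-high cells. Of β-cells with 3000 to 4000 UMIs 24.8% (28 of 113) were Ucn3-null, against 2.41% (4 of 166) of those with 10000 to 20000 UMIs, and 22 members had more than 6000 UMIs. At the edges of the rule, the shallowest member had 3035 UMIs, the deepest β-cell without Ucn3 below the threshold had 2955, and 123 β-cells held a single Ucn3 UMI at a median depth of 5230 UMIs. When every β-cell was thinned at random to 3000 UMIs, 222 of the 811 (27.4%) held no Ucn3 UMI. Ucn3 outside the β-cells was low when pooled over samples: 14 of 228 non-β-cells of the same depth (6.14%) held a Ucn3 UMI after the same thinning, against 72.6% of the β-cells. Without thinning these shares were 9.71% of all 309 non-β-cells (median 4237 UMIs) and 88.4% of the β-cells (median 6808 UMIs).

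The gate set the hormone shares of the members. Insulin transcripts made up 23.7% to 78.3% of their UMIs, with a median of 58.4%, and their highest Gcg, Sst and Ppy shares were 0.0909%, 0.248% and 4.62%. Outside the gate, Iapp (islet amyloid polypeptide, co-secreted with insulin) was detected in all 94 members, the islet glucose-6-phosphatase gene G6pc2 in 79 and Slc2a2 in 34 (36.2%, against 48.7% of the Ucn3-high cells). Among 21 members rich in the hormone transcripts Ppy and Pyy, which are described further on, G6pc2 was at 714 CPM (counts scaled to 1000000 UMIs) against 2104 CPM in the Ucn3-high cells, and Slc2a2 was found in 2 of 21. Mafa was at 0 in every class and so says nothing about maturity here. In all, 7 of 9 β-cell markers were detected in the members. The rule fixed part of this count, since the gate required insulin transcripts (Ins1 and Ins2) and the members were chosen for lacking Ucn3.

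The first comparison asked whether β-cells without Ucn3 were more frequent after partial pancreatectomy. In the control samples 7 of 36, 9 of 70, 4 of 117 and 7 of 111 β-cells were Ucn3-null, or 19.4%, 12.9%, 3.42% and 6.31%. In the PPTx samples these were 14 of 94, 25 of 186, 8 of 99 and 20 of 98, or 14.9%, 13.4%, 8.08% and 20.4%. The groups overlapped, with means of 10.5% ± 7.15 in control and 14.2% ± 5.07 in PPTx (SD, n = 4 each), and PPTx exceeded control by 3.70 points, which was within the spread (two-sided exact permutation test, p = 0.371, n = 4 each). Within cells of 3000 to 6000 UMIs the difference was 9.64 points (exact permutation test, p = 0.114), and without control replicate 3 it was 1.34 points (exact p = 0.686). The exact 95% binomial interval of control replicate 3, which had the deepest members (median 9260 UMIs), ran from 0.939% to 8.52%, and that of PPTx replicate 4 from 12.9% to 29.7%. These intervals cover counting error only.

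With all cells at 3000 UMIs the shares were closer together within each group. Control samples then had 25%, 27.1%, 24.8% and 18.9% of β-cells without Ucn3, and PPTx samples 34.0%, 31.2%, 25.3% and 29.6%. The means were 24.0% ± 3.53 and 30.02% ± 3.67 (SD, n = 4 each). They lay 6.06 points apart (two-sided exact permutation test over samples, p = 0.0571, where 0.0286 is the smallest value that 4 against 4 samples allow). PPTx replicate 3 lay inside the control range and the other 3 PPTx samples above it. A second random thinning gave 3.28 points (exact p = 0.543), so the draw itself moved this value. Within cells of 3000 to 6000 UMIs the thinned shares differed by 16.8 points (exact p = 0.114). Ucn3 summed over these β-cells before thinning was 498, 409, 560 and 670 CPM in control and 416, 508, 538 and 615 CPM in PPTx samples. The means of 534 ± 110 and 520 ± 82.1 CPM overlapped (exact permutation test, p = 0.8), and the edgeR fit gave a log2 difference of -0.21 (SE 0.19, adjusted p = 0.771).

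**Figure D1:**
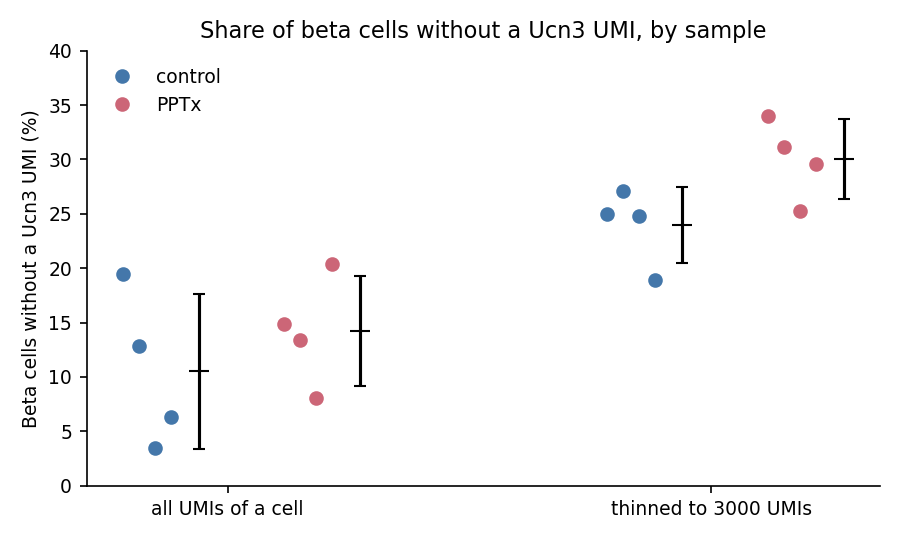
Share of β-cells of at least 3000 UMIs without a Ucn3 UMI (%, y axis) in each control and PPTx sample, counted on all UMIs of a cell (left) and after thinning to 3000 UMIs (right); points are samples and bars mark the group means. The groups overlap on all UMIs, and after thinning 3 of 4 PPTx samples lie above the highest control sample at 27.1%.

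To find what else distinguished the members, their summed counts (thinned to 3000 UMIs per cell) were compared with those of the Ucn3-high cells of the same sample. In 7 samples both classes had at least 5 cells, which placed 90 members and 385 Ucn3-high cells in the comparison. Control replicate 3, with 4 members, was not used. Of 392 genes with enough counts, 12 (3.06% of those tested) passed an adjusted p of 0.05, 10 of them higher (2.55%) and 2 lower (0.51%) in the members. The median log2 difference over all tested genes was -0.01. Ucn3, the insulin genes, Gcg, Sst and Ppy had defined the cells and were not tested. Fewer genes passed without PPTx replicate 1, 2 or 4 (7, 7 and 4 genes).

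The clearest differences were in a hormone of another islet cell type and in 2 redox genes. Pyy (chr11:102106676-102107832) encodes peptide YY, a hormone of PP-cells and gut endocrine cells. It reached 47.6, 1037 and 3333 CPM in the members of control replicates 1, 2 and 4 and 6095, 2213, 11750 and 4033 CPM in those of PPTx replicates 1 to 4. In the Ucn3-high cells of the same samples it was 66.7, 37.0, 329, 136, 184, 59.4 and 98.5 CPM. It was thus higher in the members of 6 of 7 samples, all but control replicate 1 (log2 difference 4.74, SE 0.33, adjusted p = 5.16e-14).

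Gpx3 (chr11:54902854-54910387) encodes a secreted glutathione peroxidase. Its levels were 190, 333, 667, 524, 240, 625 and 250 CPM in the members of those 7 samples, in the same order, and 0, 49.4, 103, 105, 24.3, 73.1 and 68.2 CPM in the Ucn3-high cells. The ranges of the classes did not overlap (log2 difference 2.57, SE 0.23, adjusted p = 7.65e-11). Gpx3 met the filter on counts only through the members' sums, where it was high. Its p-value and the gap between the ranges are therefore not independent of that filter. Over all samples Gpx3 was at 1175 CPM in the members rich in Ppy and Pyy, described further on, and at 142 CPM in the other members. The other members of control replicates 2 and 4 had 0 CPM, below the Ucn3-high cells, and those of the remaining samples lay above them. Gpx3 was not among the genes tested without the rich cells.

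Txnip (chr3:96557957-96561857) encodes the thioredoxin-interacting protein, whose transcription in β-cells follows glucose. It was 667, 444, 810, 524, 747, 1417 and 250 CPM in the members and 100, 136, 276, 173, 250, 178 and 121 CPM in the Ucn3-high cells. All 7 samples were higher in the members, a 3.42-fold difference (log2 1.77, SE 0.20, adjusted p = 1.25e-08). Without the cells rich in Ppy and Pyy described further on, the log2 difference was 0.83 (adjusted p = 0.0885). For Pyy, Txnip and Tmem27 the adjusted p stayed at or below 1.96e-07, 1.26e-05 and 0.00597 whichever of the 7 samples was left out, and Gpx3 at or below 1.05e-07 in the 6 such fits that tested it.

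Among genes of the secretory granule, Chga (chr12:102554941-102565027), the acidic protein chromogranin A that packs hormone into granules, was the most abundant that rose. The members had 13571, 11667 and 11571 CPM in control replicates 1, 2 and 4 and 22810, 12387, 18458 and 14033 CPM in the PPTx samples. Ucn3-high cells had 10867, 8778, 10115, 8481, 8601, 8374 and 8227 CPM, so every member value lay above every Ucn3-high value. The difference was 1.53-fold (log2 0.62, SE 0.14, adjusted p = 0.00561), and without PPTx replicate 4 its adjusted p was 0.0808. Chgb, the related chromogranin B, was at 1099 ± 333 CPM in the members against 656 ± 107 CPM (SD, n = 7; log2 0.66, SE 0.17, adjusted p = 0.0139; higher in 6 of 7 samples). Its adjusted p was 0.0774, 0.103 and 0.0808 without control replicate 2, PPTx replicate 1 and PPTx replicate 4. Both differences were smaller without the cells rich in Ppy and Pyy that are described further on (Chga 0.33, adjusted p = 0.0749; Chgb 0.29, adjusted p = 0.752).

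Of 17 granin and prohormone processing genes all were detected in the members, 14 were tested, 2 rose (Chga and Chgb) and none fell. Over all 392 tested genes 2.55% rose and 0.51% fell. The list's median log2 difference was 0.13, beside -0.01 over all genes. Pcsk1n, an inhibitor of the prohormone convertase PC1/3, was higher in 7 of 7 samples without passing (log2 0.39, adjusted p = 0.192). Neither did the calcium sensor Scgn (0.53, adjusted p = 0.241), Nucb2 (-0.56, adjusted p = 0.241) or Iapp (-0.22, adjusted p = 0.276). Resp18, an endocrine secretory pathway protein, rose from 1146 ± 117 to 2010 ± 715 CPM (log2 0.70, SE 0.16, adjusted p = 0.00704; higher in 7 of 7 samples), with an adjusted p of 0.0641 when PPTx replicate 1 was left out and 0.0629 when PPTx replicate 4 was. Without the rich cells it had 0.18 (adjusted p = 0.898).

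The glucose sensing and β-cell function list held 22 genes, of which 18 were detected and 8 tested. Of these 1 was higher and 1 lower, beside 2.55% and 0.51% of all tested genes. The list's median was -0.33, and -0.07 without the rich cells. Tmem27 (collectrin), a membrane protein of α- and β-cells, was the gene that rose, from 330 ± 108 to 696 ± 246 CPM (log2 1.02, SE 0.17, adjusted p = 1.01e-04; higher in 6 of 7 samples). Its difference without the rich cells was 0.53 (adjusted p = 0.339). Ero1lb, the oxidase that supplies disulphide bonds to proinsulin folding, was the gene that fell. It was at 571, 963, 381, 690, 1173, 542 and 800 CPM in the members and 867, 1012, 955, 1025, 1677, 1023 and 970 CPM in the Ucn3-high cells. It was lower in the members of all 7 samples although the ranges overlapped (log2 -0.61, SE 0.17, adjusted p = 0.0341). Of the 7 fits that left out a sample it passed in 1, without control replicate 2 (adjusted p 0.0295 to 0.129). The call also depended on the random thinning, since a second draw gave -0.47 (adjusted p = 0.139). Leaving out the rich cells gave -0.22 (adjusted p = 0.885).

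Slc2a2, the other marker of the class, did not pass. It was at 238, 259, 238, 238, 120, 292 and 117 CPM in the members and 433, 383, 337, 228, 222, 233 and 167 CPM in the Ucn3-high cells, lower in 5 of 7 samples. The log2 difference was -0.48 (SE 0.22), with an edgeR adjusted p of 0.290. It was -0.22 on a second draw of the thinning and -0.34 without thinning (adjusted p = 0.861 and 0.517). G6pc2 (chr2:69211073-69227993) was at 1784 ± 1131 against 2368 ± 633 CPM and lower in 6 of 7 samples (log2 -0.60, SE 0.18, adjusted p = 0.0526), and it passed on the second draw. Values for the other tested genes of the list were -0.59 for the granule-docking protein Sytl4 (adjusted p = 0.242), 0.26 for the sulphonylurea receptor Abcc8 (0.645), -0.09 for the zinc transporter Slc30a8 (0.947) and -0.19 for the prolactin receptor Prlr (0.748).

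The other genes that passed were Fam183b (221 against 126 CPM, log2 0.77, SE 0.22, adjusted p = 0.0417, higher in 7 of 7 samples) and Gng12. Gng12, a G-protein γ subunit, was lower at 448 against 641 CPM (log2 -0.57, SE 0.15, adjusted p = 0.0229, lower in 6 of 7 samples). Gng12 passed in 2 of 7 and Fam183b in 1 of 5 fits without a sample; Gng12 passed only without control replicate 1 or 2, and Fam183b only without control replicate 4. Fam183b did not pass on a second draw of the thinning (0.56, adjusted p = 0.268) or without thinning (0.44, adjusted p = 0.301). Rgs2, a regulator of G-protein signalling, and Igfbp7, a secreted IGF-binding protein, are named after their values were seen. Rgs2 had a log2 difference of 0.75 (SE 0.16, adjusted p = 0.00374, higher in 5 of 7 samples; 0.102 without PPTx replicate 4). Igfbp7 had one of 0.86 (SE 0.22, adjusted p = 0.0139, higher in 6 of 7 samples; 0.103, 0.202 and 0.0808 without PPTx replicates 1, 2 and 4). Leaving out the rich cells gave -0.24 for Gng12, 0.61 for Rgs2 and 0.48 for Igfbp7 (adjusted p = 0.898, 0.114 and 0.752). Next below the threshold came Camk2n1, an inhibitor of CaM kinase II (log2 -0.77, adjusted p = 0.0526), and Ftl1, the ferritin light chain (-0.55, adjusted p = 0.0962).

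**Figure D2:**
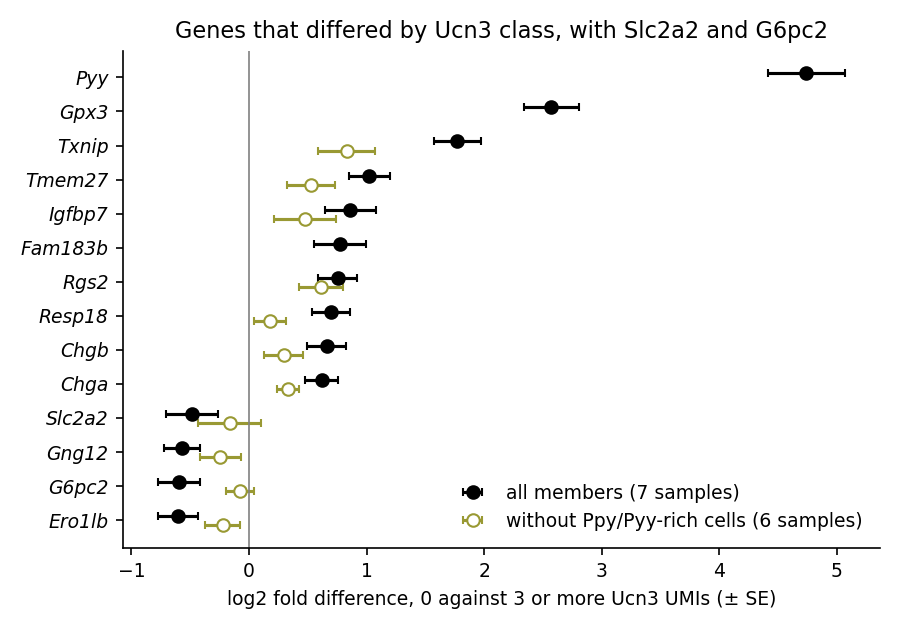
Log2 fold difference (x axis, ± SE) between Ucn3-null and Ucn3-high β-cells for the 12 genes that passed and for Slc2a2 and G6pc2, with all members (filled, 7 samples) and without cells rich in Ppy and Pyy (open, 6 samples). Every gene shown with both values lies nearer to 0 without those cells, for example Chga at 0.33 and G6pc2 at -0.08.

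**Figure D3:**
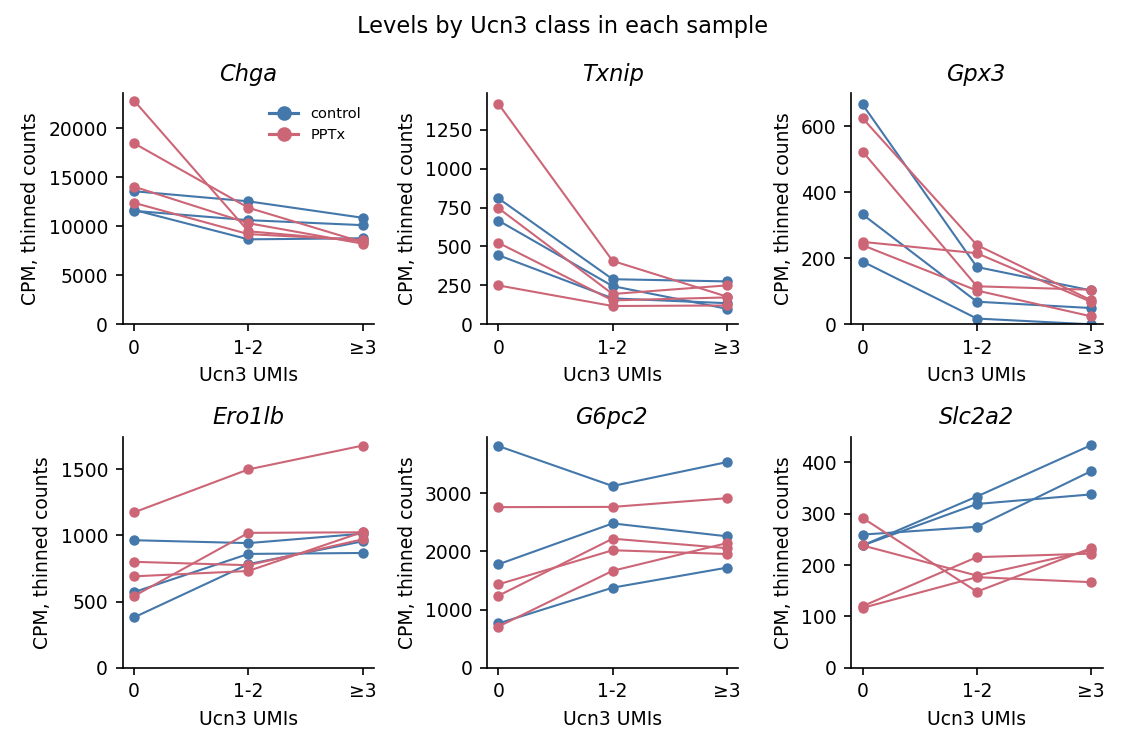
CPM of thinned counts (y axis) by number of Ucn3 UMIs (x axis) in each sample, with lines joining the classes of 1 sample, for genes described in the text. Gpx3, Txnip and Chga are higher at 0 than at 3 or more Ucn3 UMIs in 7 of 7 samples, while Slc2a2 is lower in 5 of 7.

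Cells with 1 or 2 Ucn3 UMIs served as a nearer comparison. Against them 5 of 310 tested genes passed (1.61%), all higher in the members, namely Pyy (log2 2.93, adjusted p = 4.03e-08), Txnip (1.58, adjusted p = 2.11e-07), Gpx3 (1.39, adjusted p = 0.00115), Tmem27 (0.88, adjusted p = 0.00316) and Resp18 (0.62, adjusted p = 0.0234). Depth still differed between the classes before thinning. Within cells of 3000 to 6000 UMIs (95 genes tested in 6 samples), only Tmem27 passed (1.04, adjusted p = 0.0180), and Chga had 0.68 (adjusted p = 0.0558). With the mean log2 UMIs per cell of each sum, taken before thinning, as a covariate, none of 392 genes passed and 18 had p under 0.05 in edgeR. All 12 genes kept their sign. The log2 difference was smaller than without the covariate for Pyy (3.51), Gpx3 (2.18), Txnip (1.36), Resp18 (0.51), Chgb (0.37), Ero1lb (-0.51) and Gng12 (-0.26). It was larger for Igfbp7 (1.40), Tmem27 (1.24), Rgs2 (1.04), Fam183b (0.96) and Chga (0.67). The lowest adjusted p was that of Pyy (0.0606).

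Ppy (chr11:102099931-102101319), the pancreatic polypeptide gene, lies 5357 bases from Pyy and took part in the gate, so its level is described only. It was at 95.2, 1000 and 238 CPM in the members of control replicates 1, 2 and 4 and at 10500, 4293, 6125 and 2367 CPM in the PPTx samples. The Ucn3-high cells ranged from 185 to 1006 CPM over these 7 samples. Both hormones were carried by a minority of members. In 21 of 94 members (22.3%) Ppy and Pyy together made up at least 0.5% of UMIs, against 8 of 232 cells with 1 or 2 Ucn3 UMIs (3.45%) and 6 of 485 Ucn3-high cells (1.24%). The 0.5% level was chosen after the values were seen; 4 members lay between 0.25% and 0.5%, 8 between 0.5% and 1%, and 13 above 1%, up to 10.6%. Members rich in Ppy and Pyy occurred in 7 of 8 samples (0 of 7, 2 of 9, 1 of 4 and 2 of 7 in control, and 5 of 14, 3 of 25, 4 of 8 and 4 of 20 in PPTx).

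Seen from the other side, β-cells rich in Ppy and Pyy lacked Ucn3 more often at each depth up to 10000 UMIs. Of 35 such cells 21 (60.0%) held no Ucn3 UMI, against 73 of the 776 other β-cells (9.41%). The shares were 9 of 10 against 19 of 103 at 3000 to 4000 UMIs, 7 of 12 against 37 of 209 at 4000 to 6000, and 5 of 11 against 13 of 300 at 6000 to 10000. At 10000 to 20000 UMIs they were 0 of 2 and 4 of 164. Ucn3 summed over these cells before thinning was 194 CPM in the rich cells and 547 CPM in the others. As a description without a test, the rich members were 18.5% of control and 23.9% of PPTx members.

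**Figure D4:**
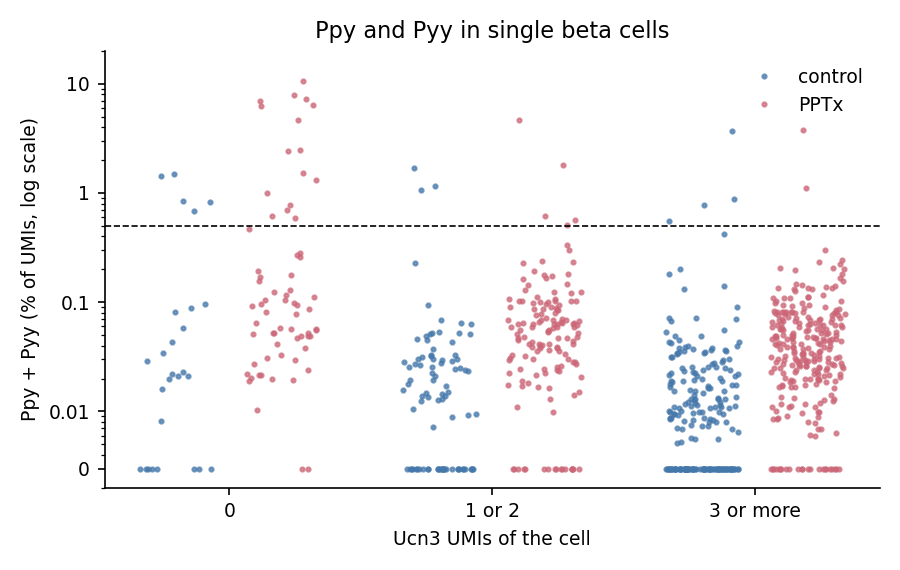
Ppy and Pyy together as a percentage of a cell's UMIs (y axis, log scale, cells at 0 drawn at the bottom) in single β-cells of at least 3000 UMIs by number of Ucn3 UMIs (x axis); points are cells, coloured by group, and the dashed line marks 0.5%. Above the line lie 21 of 94 cells without Ucn3 and 6 of 485 with 3 or more.

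The levels of the 21 rich members are given over all samples, against the 73 other members, the 485 Ucn3-high cells and 109 Ppy-rich cells outside the β-cell gate (Ppy at least 20% of UMIs and insulin under 10%). Chga was at 28937 CPM in the rich members, 10840 CPM in the other members, 8836 CPM in the Ucn3-high cells and 4150 CPM in the Ppy-rich cells. The rich members were thus above all 3 other sets. Txnip was also highest in the rich members, with 1635, 338, 203 and 352 CPM. Chgb was at 2048, 767, 655 and 1043 CPM, and Igfbp7 at 714, 228, 162 and 177 CPM.

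A further set of genes was high in both the rich members and the Ppy-rich cells. Gpx3 was at 1175, 142, 63.9 and 1740 CPM, Tmem27 at 1524, 484, 331 and 2055 CPM, and Resp18 at 4079, 1384, 1173 and 4055 CPM. Rbp4, a retinol carrier and δ-cell marker, was at 286, 13.7, 12.4 and 211 CPM, and Fxyd3 at 238, 36.5, 28.9 and 110 CPM. Etv1, on the PP-cell list, was found in 0 of 21 rich members against 34 of 109 Ppy-rich cells, and Irx2 and Ghrl were at 0 in the rich members.

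Slc2a2, G6pc2, Ero1lb and Gng12, named after their values were seen, were at lower levels in the rich than in the other members. Slc2a2 was at 63.5 CPM (2 of 21 cells with a UMI) against 215 CPM, 258 CPM in the Ucn3-high cells and 15.3 CPM in the Ppy-rich cells. G6pc2 was at 714, 2119, 2104 and 94.8 CPM, Ero1lb at 524, 900, 1113 and 82.6 CPM, and Gng12 at 206, 589, 686 and 39.8 CPM. Ins1 was at 39857 against 76452 CPM and Ins2 at 381143 against 517516 CPM in the rich and other members. Iapp (49587 against 46178 CPM) and Nkx6-1, a β-cell identity factor (159 against 119 CPM), were not lower, nor were the islet transcription factor Isl1 (222 against 119 CPM) and Scgn (460 against 279 CPM). Slc30a8 was at 381 against 411 CPM. Summed over all samples, the 73 other members had Slc2a2, G6pc2, Iapp and Nkx6-1 levels close to those of the Ucn3-high cells, whose Iapp and Nkx6-1 were at 49810 and 124 CPM. Within samples the other members mostly lay below the Ucn3-high cells. G6pc2 was lower in all samples but control replicate 1, and Slc2a2 in all but PPTx replicates 1 and 3. Iapp was lower in all but control replicate 1 and PPTx replicate 3, and Nkx6-1 in all but control replicate 1 and PPTx replicate 4.

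Within samples the rich and the other members could be compared in 7 samples. Chga, Txnip, Tmem27 and Igfbp7 were higher in the rich members in 7 of 7, and Slc2a2, Ins1, Ins2 and Gng12 lower in 7 of 7. The rich sums held 1 to 5 cells per sample, so the signs of low genes such as Slc2a2 and Gng12 rest on few UMIs. Ins1 and Ins2 also took part in the gate. Chgb and Gpx3 were higher in 6 and lower in none, while Resp18, Scgn and Iapp were higher in 6 and lower in 1. Other genes differed in direction between samples, with Rbp4 and Rgs2 higher in 5 and lower in 2, Fxyd3 higher in 5 and lower in 1, Nkx6-1 higher in 4 and lower in 3, Isl1 higher in 4 and lower in 2, and Slc30a8 higher in 3 and lower in 4. G6pc2 and Ero1lb were lower in 6 of 7. For Chga the rich members ranged from 18167 to 41867 CPM over samples and the other members from 8333 to 13889 CPM, so the ranges did not overlap. The median depth was 4627 UMIs in the rich and 4783 UMIs in the other members, and the median number of genes detected at 3000 UMIs was 999 and 789, with 807 in Ucn3-high and 842 in Ppy-rich cells. Rich cells that did hold Ucn3 also had raised Chga (17250 CPM at 1 or 2 UMIs and 14167 CPM at 3 or more, beside 9710 and 8769 CPM in cells not rich), while their G6pc2 was 2042 and 2111 CPM. Whether more than 1 cell shared a droplet was not tested.

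**Figure D5:**
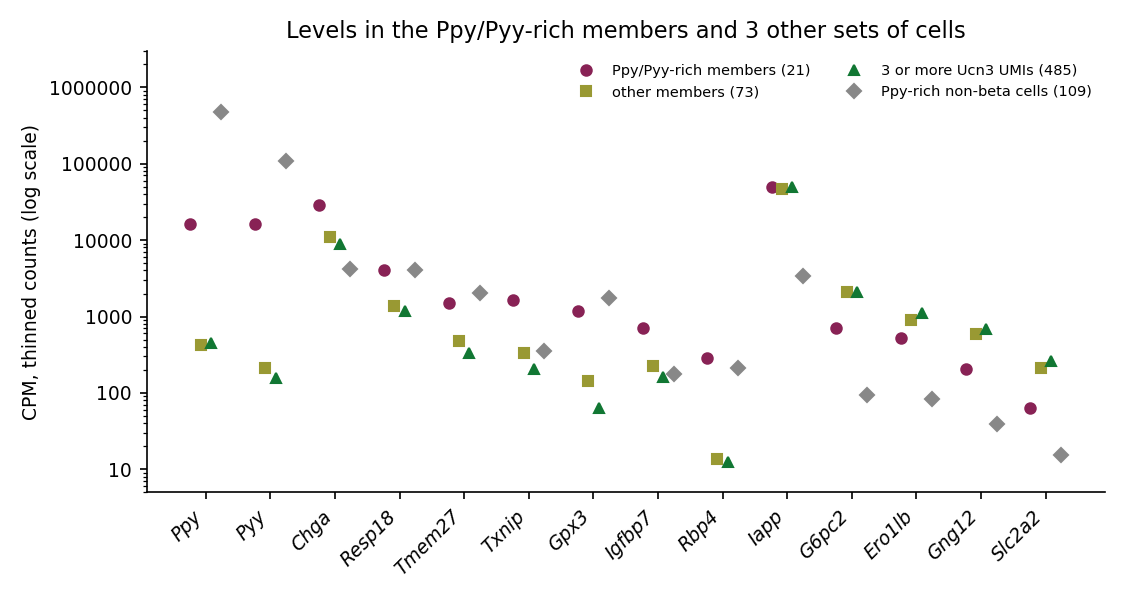
CPM of thinned counts (y axis, log scale) summed over the 21 members rich in Ppy and Pyy, the 73 other members, the 485 Ucn3-high cells and the 109 Ppy-rich cells outside the β-cell gate. Chga and Txnip are highest in the rich members, Gpx3 and Tmem27 are high in the rich members and the Ppy-rich cells, and Slc2a2 and G6pc2 lie between the Ucn3-high and the Ppy-rich cells.

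When all β-cells rich in Ppy and Pyy were left out, 6 samples with 66 of the remaining 73 members entered the comparison, since PPTx replicate 3 then had fewer than 5. None of 298 tested genes passed (0%), with 21 at p under 0.05, in the edgeR fit. Of the 12 genes that had passed, 9 were still tested, all with their sign kept and a smaller size (median 0.33 against 0.70 on the log2 scale). Txnip had 0.83 (adjusted p = 0.0885), Rgs2 0.61 (0.114), Tmem27 0.53 (0.339), Igfbp7 0.48 (0.752), Chga 0.33 (0.0749), Chgb 0.29 (0.752), Resp18 0.18 (0.898), Gng12 -0.24 (0.898) and Ero1lb -0.22 (0.885). Slc2a2 had -0.16 and G6pc2 -0.08.

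No tested transcription factor of β-cells passed. Of 18 listed, 16 were detected and 4 tested (0 passed; 1 at p under 0.05 in the edgeR fit), with a median of 0.21 that turned to -0.13 without the rich cells. Values were -0.71 for Insm1, an endocrine differentiation factor (SE 0.26, adjusted p = 0.186), 0.46 for Mlxipl, the carbohydrate-responsive factor (0.400), 0.39 for Neurod1 (0.454) and 0.03 for Pax6 (0.986). Of genes on the lists for glucose sensing, transcription factors and immaturity that were too low for edgeR, 20 had at least 10 counts and were tested by exact sign flips over the 7 samples. None passed adjustment and 1 had p under 0.05. That gene was Trpm5, a cation channel of β-cells (63.2 against 124 CPM, lower in 7 of 7 samples, exact p = 0.0156, the smallest possible, adjusted 0.312). Nkx6-1 was at 126 against 123 CPM (exact p = 0.906), Isl1 at 156 against 101 CPM and Foxa2 at 111 against 75.6 CPM.

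Few genes of immature or dedifferentiated β-cells, or normally silenced in β-cells, were detected. Of 18 listed, 5 were found in the members and none reached the edgeR fit. Aldh1a3, a dedifferentiation marker, had 4 counts in the members and 2 in the Ucn3-high cells, and Npy had 0 and 17 (exact sign flips, p = 0.25). Sox4, a factor of endocrine development, had 10 and 50 counts (43.0 and 51.6 CPM, lower in 5 of 7 samples, exact p = 0.359). Over all β-cells Sox4 had a log2 difference of -0.98 between PPTx and control (SE 0.38, edgeR adjusted p = 0.391). Of the 7 ligands and receptors of the corticotropin-releasing factor family, 1 was detected in the members and none was tested.

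The lists on other cell functions gave few calls. None of 15 tested ER chaperone and unfolded protein response genes passed (median -0.01; Hsp90b1 0.40, adjusted p = 0.186, higher in 7 of 7 samples; Hspa5 0.38, adjusted p = 0.247). The same held for 6 exocytosis genes (median -0.07; Syt13 0.29, adjusted p = 0.298), 55 cytosolic ribosomal proteins (median -0.03) and 29 nuclear genes of oxidative phosphorylation (median -0.02; Cox5b 0.68, adjusted p = 0.192). It held too for 2 glycolytic genes (median -0.17), 3 genes of metallothioneins and zinc (-0.09), 1 of MHC class I (-0.06) and 1 immediate early or dissociation gene (Hspa8, 0.19). Txnip was the 1 of 2 tested glucose-responsive and lipogenic genes that rose, and Gpx3 the 1 of 5 iron storage and redox genes. Over all tested genes 2.55% rose. No gene of the integrated stress response or of replication and mitosis had enough counts, and the tables held no gene of the mitochondrial genome. At least 2 UMIs of 22 replication genes, counted before thinning, were found in 18.1% of members, 16.8% of cells with 1 or 2 Ucn3 UMIs and 15.5% of Ucn3-high cells. The median depth of these classes was 4756.5, 5439.5 and 8042 UMIs, so the shares were not taken at equal depth and carry no test.

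Further measures were compared between the classes over the same 7 samples by two-sided exact sign flips, 6 in all. Of these 3 were medians over the cells of a class and 3 were CPM of marker lists in the summed counts. Genes detected at 3000 UMIs were 837 ± 70.8 in the members and 830 ± 70.2 in the Ucn3-high cells (exact p = 0.750). The insulin share, bounded by the gate and so given with no test, was 58.4% ± 3.77 and 58.7% ± 3.91. The ribosomal protein share was 1.98% and 1.89% (exact p = 0.219) and that of oxidative phosphorylation genes 0.998% and 1.01% (exact p = 0.688). Summed α-cell markers without Gcg were 2599 ± 449 and 2228 ± 299 CPM, higher in 7 of 7 samples (exact p = 0.0156, adjusted 0.0938), and the difference was -49.6 CPM without the rich cells. Tmem27, described above, is on this list, with 716 CPM over all members and 331 CPM over all Ucn3-high cells. Ttr, also on it, was at 1748 and 1669 CPM. The sum is therefore not independent of the Tmem27 call. PP- and ε-cell markers without Ppy were 4156 ± 3982 and 162 ± 96.9 CPM (6 of 7 samples, exact p = 0.0312, adjusted 0.0938). Nearly all of this sum was Pyy, described above (mean 4073 CPM in the members), with Ghrl at 0 and Etv1 in 1 of 94 members, so it is not a separate result. Ductal markers were 199 ± 39.2 and 222 ± 128 CPM (exact p = 0.781).

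Endothelial, immune, acinar and stellate or glial markers were low in the members. There 2 of 8 endothelial markers were detected (0 to 23.8 CPM summed per sample), 3 of 9 immune markers (0 to 83.3 CPM), 9 of 11 acinar markers (0 to 233 CPM), 1 of 9 stellate and glial markers (0 to 47.6 CPM). Of 8 ductal markers 3 were detected (167 to 417 CPM). The endocrine lists were higher. δ-cell markers, 4 of 8 detected, ranged from 95.2 to 458 CPM and α-cell markers, Gcg included and 7 of 10 detected, from 1500 to 3190 CPM. PP- and ε-cell markers, 4 of 5 detected, ranged from 143 to 18083 CPM in the members and from 259 to 1167 CPM in the Ucn3-high cells. The part these markers play in the differences above was not tested beyond leaving out the rich cells.

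The last comparison asked how the members themselves differed between PPTx and control. With 3 control and 4 PPTx samples, none of 121 tested genes passed in edgeR (0%), with 11 at p under 0.05, and none by DESeq2, with 5. Without control replicate 4 there were 2, Pyy and Rgs2, both higher in PPTx. Without the rich cells no gene passed of 67 tested (4 at p under 0.05 in edgeR). Ppy, whose level is given above, was not tested because the gate capped it at 5% of UMIs. Its members' levels in PPTx, 2367 to 10500 CPM, lay above those of all 4 control samples, where control replicate 3 was highest at 1917 CPM on 4 members. Over all β-cells of at least 3000 UMIs it was at 176, 481, 174 and 505 CPM in control and 2287, 1201, 751 and 1027 CPM in PPTx samples.

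Spcs2, a subunit of the signal peptidase, had the lowest p, with 190, 222 and 95.2 CPM in control and 714, 533, 625 and 450 CPM in PPTx members (log2 1.503, SE 0.40, adjusted p = 0.166). These samples did not overlap. Pyy had 1.86 (adjusted p = 0.419) and Ssr3, of the ER translocon, 1.24 (adjusted p = 0.419). Of the ER chaperone list 10 were tested in the members, none passed and the median was 0.40. In the Ucn3-high cells, 22 of that list were tested, 1 rose and the median was 0.38.

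Among all genes outside the gate, 4 of 1573 passed between PPTx and control in the Ucn3-high cells (0.254%), 3 higher (0.191%) and 1 lower (0.0636%). In all β-cells 12 of 2545 passed (0.472%), 9 higher (0.354%) and 3 lower (0.118%) in PPTx. The higher genes were Sdf2l1, Fkbp11, Creld2, Pdia6, Ppib, Dapl1, Srm, Pyy and Rgs2, and the lower ones Mt1, Mt2 and Trpm5. Of the 8 fits without a sample, Pdia6 and Srm each passed in 1, Creld2 and Ppib in 2 and Dapl1 in 4. Mt2 passed in 6, and Sdf2l1, Fkbp11 and Mt1 in all 8. Dapl1 did not pass without thinning (edgeR adjusted p = 0.0505), and DESeq2 gave Srm no adjusted p. Pyy, which was also higher in the members than in the Ucn3-high cells, was at 83.3, 314, 188 and 586 CPM over all β-cells of the control samples and 1046, 478, 1162 and 1068 CPM of the PPTx samples. PPTx replicate 2 lay inside the control range (log2 1.52, SE 0.33, adjusted p = 0.0282). The call was lost without control replicate 1 (adjusted p = 0.0770), control replicate 3 (0.114) or PPTx replicate 3 (0.12), and by DESeq2 (0.310). Rgs2 was at 333, 176, 228 and 420 CPM in control and 429, 627, 684 and 731 CPM in PPTx samples, which did not overlap (log2 1.01, SE 0.22, adjusted p = 0.0282). It passed in 3 of 8 fits without a sample (adjusted p 0.00383 to 0.181), those without PPTx replicate 1, PPTx replicate 2 or control replicate 4, and did not pass without thinning (0.182). Trpm5 had -1.21 (adjusted p = 0.00804) and passed in 8 of 8 such fits. The 4 genes in the Ucn3-high cells were Sdf2l1, an ER chaperone cofactor (1.29, adjusted p = 0.00854), Fkbp11, an ER prolyl isomerase (1.13, adjusted p = 0.0203), Tmem160 (1.56, adjusted p = 0.0398) and the metallothionein Mt1 (-1.14, adjusted p = 0.00854). None of them had enough counts to be tested in the members, where 121 genes could be. Without control replicate 2 or 4 or PPTx replicate 2 or 4, 1, 1, 7 and 11 genes passed in the Ucn3-high cells, and without control replicate 1, control replicate 2 or PPTx replicate 3, 5, 7 and 5 passed in all β-cells. Whether the step from Ucn3-high to Ucn3-null differed between the groups was tested directly as an interaction. None of 392 genes passed (0%) in edgeR, with 21 at p under 0.05, and none by DESeq2, with 8. Without PPTx replicate 2 there was 1. The smallest p was that of Pyy (log2 1.99, SE 0.60, adjusted p = 0.537), followed by Spcs2 (1.48, SE 0.46, adjusted p = 0.537).

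The rich members as a share of all β-cells of at least 3000 UMIs were 0%, 2.86%, 0.855% and 1.80% in control and 5.32%, 1.61%, 4.04% and 4.08% in PPTx samples. The means were 1.38% ± 1.23 and 3.76% ± 1.55 (SD, n = 4 each), and PPTx replicate 2 fell among the controls. As a share of the members they were 18.9% ± 12.9 and 29.4% ± 16.9. These shares rest on Ppy, which the gate capped, and carry no test.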

How the data were processed

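Single-cell RNA sequencing of islet cells was deposited as 1 table of UMI counts per sample, with cells in rows and genes in columns. Per the labels and the study's methods the authors aligned reads to mm10 and counted UMIs with Cell Ranger; the counts were not normalized. The library platform is named differently in the methods (ddSEQ) and the labels (Chromium). The study describes filtering and debarcoding in Cell Ranger and then limits on genes and reads per cell. No doublet caller was run.

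Ins1, Ins2, Gcg, Sst and Ppy, which set the gate, were left out of every test, the insulin share included, and Ucn3 was tested over all β-cells only. Cells were gated and classed as in the report, counts were thinned without replacement to 3000 UMIs per cell, and summed per sample and class where at least 5 cells were present. Sums were tested with edgeR 4.0.16 (R 4.3.3; filterByExpr, TMM, quasi-likelihood F test, sample as block for classes, Benjamini-Hochberg over all tested genes, called below an adjusted p of 0.05). The edgeR fits between classes, between conditions (members and all β-cells) and of the interaction were tested on simulated data. The alternatives, DESeq2 1.42.0 among them, were not. CPM are thinned UMIs scaled to a total of 1000000, unadjusted by TMM. Because cells of 1 sample are not replicates, n counts samples; shares, medians and marker sums were compared with exact permutations of samples (scipy 1.17.1).

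Named genes were the tested members of the glucose sensing, transcription factor and immaturity lists, called genes with 1 sign in every sample (for conditions, no overlap), the lowest p values where fewer than 5 passed in a direction, and up to 4 genes of each other list. The members and lists were chosen with earlier results of these data known. Some items are not reported here. Gene positions are RefSeq's for GRCm38.p6.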

Additional observations from a re-analysis of the deposited data

How the results depend on the processing

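The 13 genes followed (the 12 that passed and Slc2a2) kept their sign in every setting that tested them. For the class comparison (12 genes), 19 genes passed with no filter on low counts (4 higher and 15 lower of 12018, with a median of -0.45), 19 without thinning, 0 with depth as a covariate, 1 within 3000 to 6000 UMIs, 4 with a stricter β-cell gate (insulin at least 30%, other hormones under 1%), 5 against cells with 1 or 2 Ucn3 UMIs and 0 without the Ppy- and Pyy-rich cells, a setting chosen after seeing the data. The unnormalized total gave 10 higher and 0 lower. A second draw of the thinning gave 12, of which 10 were the same genes, with Ftl1 and G6pc2 in place of Ero1lb and Fam183b. DESeq2 gave 8 and no adjusted p for Gpx3, Igfbp7 and Fam183b. Use of all 8 samples, also chosen after seeing the data, gave 17, all 12 among them. For PPTx against control, the members (0 genes) gave 1 without the filter and 1 without thinning; the Ucn3-high cells (4) gave 9 without thinning; all β-cells (12) gave 22 without the filter; the interaction (0) gave 1 without the filter. The causes were not tested. Leaving out 1 sample gave 4 to 13 genes for the classes, 0 to 2 for the members, 1 to 11 for Ucn3-high cells, 5 to 10 for all β-cells and 0 to 1 for the interaction. The share of Ucn3-null cells then differed by 1.34 to 6.68 points and the thinned share by 4.37 to 7.64 points.

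The differences in per-cell medians and marker sums, none past adjustment, turned sign in some settings. Genes detected gave -2.25 within 3000 to 6000 UMIs and -29.25 without the rich cells, the ribosomal share -0.075 points and α-cell markers -49.6 CPM without the rich cells, and against cells with 1 or 2 Ucn3 UMIs the oxidative phosphorylation share gave 0.0214 points and ductal markers 46.0 CPM. Leaving out 1 sample gave -7.08 to 17.25 genes, 0.0444 to 0.128 points of ribosomal protein, -0.025 to 0.00278 points of oxidative phosphorylation, 309 to 429 CPM of α-cell, 2687 to 4663 CPM of PP- and ε-cell and -40.9 to 19.1 CPM of ductal markers.

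Replicate numbers are shared between the groups, but same-numbered samples deviated together only weakly (correlations 0.0982, 0.0213, 0.0771 and 0.196 over 2042 genes), so the numbers were not read as pairs. With the replicate block no gene passed in the members, 13 in the Ucn3-high cells and 18 in all β-cells, and the paired p of the shares was 0.375 and 0.125 (exact sign flips).

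Depth limits the low genes most. A single count in the members' sums stood for 13.3 to 83.3 CPM. On the lists for glucose sensing, transcription factors, immaturity and the corticotropin-releasing factor family, 52 genes were too low for the fit. Other lists also held untested genes: the fit covered 0 of 25 replication, 0 of 18 integrated stress response, 55 of 81 ribosomal and 29 of 91 oxidative phosphorylation genes.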
